A study of Homo sapiens with 3 samples.

Results

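The genes described here are MYCN, its 4 neighbours on the short arm of chromosome 2 (MYCNOS, DDX1, NBAS and FAM49A), its paralog MYC and its dimer partner MAX. They were chosen by name and are 7 of 32738 gene rows in the count tables. Their RNA was read in single Kelly cells, an established human neuroblastoma line known to carry MYCN amplification and an activated ALK receptor. TAE684 is an inhibitor of the ALK kinase. The TAE684-sensitive cells were cultured with DMSO, the vehicle, the intermediate resistant cells with 500 nM TAE684 and the fully resistant cells with 1 µM TAE684, and each state was 1 library of polyA RNA. With 1 library per group no difference below has a replicate check and no test was possible, and resistance, the drug dose in the medium and differences between cultures cannot be told apart.

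MYC proteins are transcription factors that bind DNA at E-boxes as heterodimers with MAX and drive genes of ribosome production, nucleotide synthesis and cell division. In neuroblastoma the 2p24 region around MYCN is often amplified, and the flanking genes DDX1 and NBAS can be amplified with it. MYCN and MYC transcripts tend to exclude each other across neuroblastoma lines, and MYCNOS is an antisense transcript that starts inside MYCN and is read away from it.

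Cells were barcodes with at least 5000 UMIs (unique molecular identifiers, counts of distinct RNA molecules), at least 500 genes and at most 20% of UMIs from mitochondrially encoded genes. This gave 5415 sensitive, 6288 intermediate resistant and 6331 fully resistant cells with 95119772, 102449567 and 106163582 UMIs. Median depths were alike, between 15660.5 and 16014 UMIs per cell. All 10 markers of sympathetic neuroblasts were detected in every library, with a summed level of 2131 to 3995 CPM (UMIs scaled to a total of 1000000 UMIs in the cells of a library). The summed level of immune, endothelial and erythroid markers stayed at or below 2.58 CPM, that of fibroblast markers was 18.4 to 20.8 and that of epithelial markers 1.23 to 12.9. Between 94 and 118 cells of a library carried a barcode that was also called in another library.

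The region can be shown by its promoters, since 2 of its genes share a stretch of DNA. On GRCh38, MYCN lies at chr2:15940564-15947007 on the plus strand and MYCNOS at chr2:15921037-15942249 on the minus strand, so that 1686 bases belong to both. The windows below are the 250 bases before a RefSeq transcript start on GRCh38.p14, 5′ to 3′ in the direction of transcription. The MYCN window is chr2:15940300-15940549 on the plus strand. The MYCNOS window, 1 of 2 in RefSeq, is chr2:15941686-15941935 on the minus strand and lies inside the MYCN gene, ahead of its second exon. The other, chr2:15942434-15942683, lies within that exon and is not shown. They are shown because the RNA of both genes was lower in both resistant libraries, from starts that face in opposite directions.
MYCN: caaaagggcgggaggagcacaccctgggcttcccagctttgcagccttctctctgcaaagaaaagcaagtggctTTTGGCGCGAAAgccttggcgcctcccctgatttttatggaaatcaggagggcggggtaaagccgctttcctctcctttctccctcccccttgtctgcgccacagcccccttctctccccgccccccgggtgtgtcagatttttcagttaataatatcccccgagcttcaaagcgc
MYCNOS: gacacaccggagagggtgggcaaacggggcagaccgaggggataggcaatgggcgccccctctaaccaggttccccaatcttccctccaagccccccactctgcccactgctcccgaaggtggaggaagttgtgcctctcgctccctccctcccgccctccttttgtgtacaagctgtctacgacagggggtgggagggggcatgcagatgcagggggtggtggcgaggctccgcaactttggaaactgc
Capitals in the MYCN window mark letters of the E2F binding motif, TTTGGCGC on the plus strand 176 bases before the start and TTTCGCGC on the minus strand 172 bases before it, and the matches overlap each other. Among 35116 windows of the same length, on either strand, TTTGGCGC was present in 0.55% and TTTCGCGC in 0.439%. Another spelling, TTTCCCGC, was present in 1.39%, and the E-box CACGTG in 6.34%. Neither of these last letters was found in the MYCN window, and none of the 4 motifs was found in the 6 windows of MYCNOS, DDX1, NBAS and MAX. A match is a run of letters and not a shown binding site, and its absence says nothing of the factor.

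The 3′ chemistry bears on how MYCN and MYCNOS can be told apart. UMIs come from the 3′ ends of polyadenylated RNA. The 2 annotated MYCN transcripts end at 15947007, while all 5 annotated MYCNOS transcripts end outside MYCN, 379 to 19527 bases before its start. In this GRCh38 annotation the 3′ ends of the pair therefore do not overlap. The UMIs were counted on hg19, and the gene models used for that were not examined here. How the reads of either gene were assigned by strand is not given in the sources used here.

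MYCN RNA was lower in both resistant libraries than in the sensitive one. MYCN (ENSG00000134323) had 1242 CPM (95% exact Poisson interval 1235 to 1249) in sensitive cells, 413 (409 to 417) in intermediate resistant cells and 446 (442 to 450) in fully resistant cells. The sensitive library stood far above both resistant libraries, which lay close to each other. The level was 3.01-fold lower (2.98 to 3.04) in intermediate resistant and 2.78-fold lower (2.76 to 2.81) in fully resistant than in sensitive cells. The fully resistant library was 1.08-fold (1.07 to 1.10) above the intermediate resistant one. That small step was not stable to scaling. It became a log2 ratio of -0.03 with TMM scaling (trimmed mean of M values) and of -0.0013 when mitochondrially encoded and ribosomal protein genes were left out of the total. All intervals here cover counting error only.

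MYCNOS (ENSG00000233718), the antisense transcript, had 249 CPM in sensitive, 129 in intermediate resistant and 117 in fully resistant cells. It was highest in the sensitive library, like MYCN, and lowest in the fully resistant one. The level was 1.93-fold lower (1.89 to 1.98) in intermediate resistant and 2.13-fold lower (2.09 to 2.18) in fully resistant than in sensitive cells. MYCN UMIs per MYCNOS UMI were 4.99, 3.21 and 3.82 in the order sensitive, intermediate resistant, fully resistant, so MYCN differed more from the sensitive library than its antisense partner did.

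**Figure D1:**
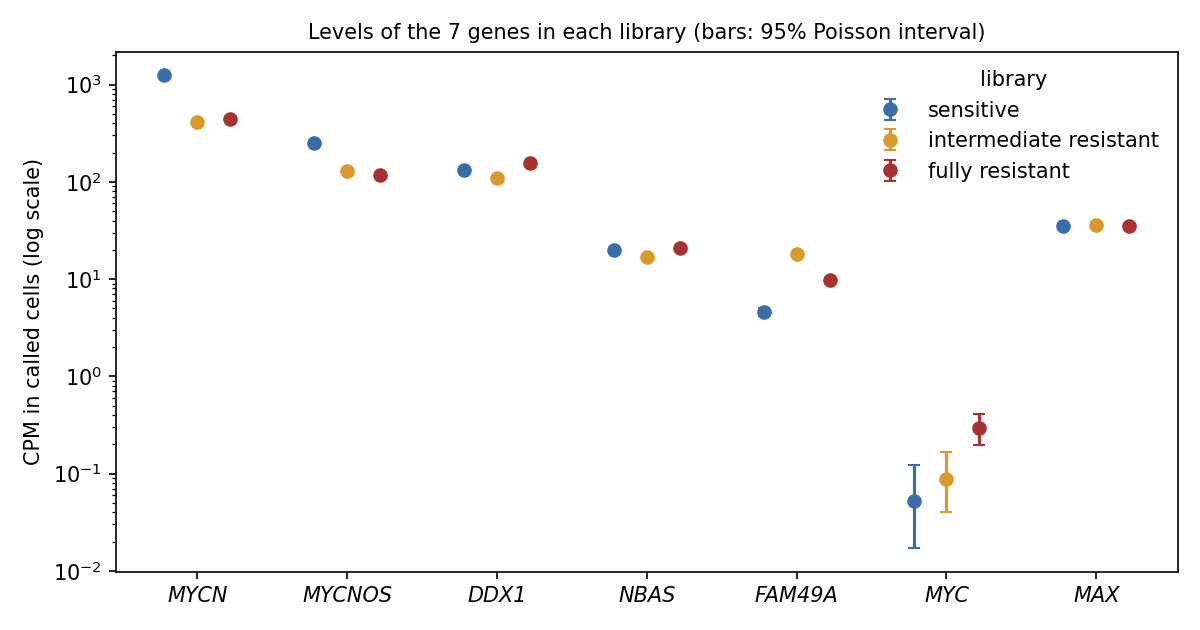
CPM in called cells (log scale) of the 7 genes in the sensitive, intermediate resistant and fully resistant libraries, with 95% Poisson intervals that are smaller than the points for all genes but MYC and FAM49A. MYCN and MYCNOS are highest in the sensitive library (1242 and 249), FAM49A is highest in the intermediate resistant one (18.0), and MAX lies between 35.3 and 36.2 in all.

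Among the protein-coding neighbours, DDX1 and NBAS differed less from the sensitive library than MYCN did, and FAM49A differed in the opposite direction. DDX1 (ENSG00000079785) encodes a DEAD-box RNA helicase and lies 0.349 Mb before the MYCN start at chr2:15591178-15631111 on the plus strand. Its level was 133 CPM in sensitive, 111 in intermediate resistant and 156 in fully resistant cells. DDX1 was thus lowest in the intermediate and highest in the fully resistant library. Set against sensitive cells it was 1.20-fold lower (1.17 to 1.23) in intermediate resistant and 1.17-fold higher (1.15 to 1.20) in fully resistant cells, and fully resistant cells were 1.41-fold (1.37 to 1.44) above intermediate resistant ones. MYCN UMIs per DDX1 UMI, a ratio read only between libraries because genes differ in capture, went from 9.37 to 3.73 and 2.86.

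NBAS (ENSG00000151779), whose product acts in Golgi-to-ER transport and in nonsense-mediated decay, lies beyond DDX1 at chr2:15166909-15561330 on the minus strand. It had 19.8 CPM in sensitive, 17.0 in intermediate resistant and 21.1 in fully resistant cells. This is the same order of libraries as for DDX1, with smaller steps. The level was 1.17-fold lower (1.09 to 1.25) in intermediate resistant and 1.06-fold higher (1.00 to 1.13) in fully resistant than in sensitive cells. The last difference was at the edge of the counting interval and came to a log2 ratio of -0.0040 with TMM scaling.

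FAM49A (ENSG00000197872, now CYRIA) encodes a protein that binds the small GTPase RAC1 and lies on the far side of MYCN at chr2:16549459-16666331 on the minus strand. Its level was 4.64 CPM in sensitive, 18.0 in intermediate resistant and 9.73 in fully resistant cells. FAM49A was lowest in the sensitive library, where MYCN was highest, and highest in the intermediate resistant one. FAM49A was 3.89-fold higher (3.50 to 4.32) in intermediate resistant and 2.10-fold higher (1.88 to 2.35) in fully resistant than in sensitive cells, and fully resistant cells were 1.85-fold (1.72 to 2.0) below intermediate resistant ones. A FAM49A UMI was seen in 7.33%, 23.9% and 14.0% of cells in that order of states.

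MYC (ENSG00000136997), the paralog, was close to absent in all states. Its UMIs numbered 5 in 5415 sensitive, 9 in 6288 intermediate resistant and 31 in 6331 fully resistant cells, or 0.0526, 0.0878 and 0.292 CPM. These UMIs came from 5, 9 and 25 cells, with at most 2 in 1 cell. The fully resistant library was 5.56-fold (2.14 to 18.3) above the sensitive one, an interval as wide as the counts are few. In barcodes of 1 to 100 UMIs, which hold mostly RNA from the suspension, MYC also had few UMIs. It stood at 1.90 and 1.94 CPM (6 and 8 UMIs) in the sensitive and intermediate resistant libraries, above the level in cells. In the fully resistant library it was 0.244 (1 UMI), against 0.292 in cells.

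MAX (ENSG00000125952), the obligate partner of MYC proteins, lies on chromosome 14 at chr14:65006174-65102695 on the minus strand. It had 35.3 CPM in sensitive, 36.2 in intermediate resistant and 35.5 in fully resistant cells. The libraries overlapped within counting error, with ratios of 1.02 (0.978 to 1.07) for intermediate resistant and 1.00 (0.959 to 1.05) for fully resistant over sensitive cells. MYCN UMIs per MAX UMI went from 35.2 in sensitive to 11.4 in intermediate resistant and 12.6 in fully resistant cells.

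A gene was taken as higher or lower when its ratio reached 1.5, with at least 5 CPM in 1 of the libraries compared, which is a rule of size and not a test. The rule could be applied to 6 of the 7 genes, MYC being below that level. Between fully resistant and sensitive cells 3 of 6 passed (MYCN and MYCNOS lower, FAM49A higher), where 29.9% of 9800 genes did, 15.2% higher and 14.7% lower. Between intermediate resistant and sensitive cells the same 3 passed in the same directions, where 18.0% of 9529 genes did, 5.83% higher and 12.2% lower. Between fully and intermediate resistant cells only FAM49A passed, as lower, where 22.0% of 9614 genes did, 13.8% higher and 8.13% lower. At a ratio of at least 2, all 3 genes remained between fully resistant and sensitive cells, where 14.1% of genes passed, 6.73% higher and 7.33% lower. MYCN and FAM49A remained between intermediate resistant and sensitive cells, where 7.19% of genes passed, 2.38% higher and 4.81% lower. None remained between the resistant libraries, where 9.62% of genes passed, 5.71% higher and 3.91% lower. These comparisons share libraries and are not independent. The median log2 ratio of all genes was 0.15 between the resistant libraries and 0.00 with TMM scaling, and against that shift MYCN at 0.11 lay near the median gene. The share of higher genes among those passing in that comparison moved from 63.0% to 46.8% with TMM, 50.3% without mitochondrially encoded and ribosomal protein genes and 51.0% with median-of-ratios scaling. It moved from 50.8% to 41.2% with TMM between fully resistant and sensitive cells.

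Genes farther out on chromosome 2 placed the region in its surroundings. The list of 28 genes from SOX11 to FAM84A, on the telomeric side, had 23 measured members, of which 2 were higher and 3 lower in fully resistant than in sensitive cells, beside 15.2% and 14.7% of all genes. In intermediate resistant cells 1 was higher and 5 lower, beside 5.83% and 12.2% of all genes. Its median log2 ratios were -0.09 and -0.16, beside 0.08 and -0.08 for all genes. The largest differences were in ID2, an inhibitor of basic helix-loop-helix factors, at 404, 238 and 147 CPM, and in the pseudokinase gene TRIB2 at 45.3, 23.8 and 19.9. SOX11, a neural transcription factor, went the other way at 117, 130 and 177. The list of 31 genes on the centromeric side had 21 measured members, with 3 higher and 3 lower in fully resistant cells and 1 higher and 1 lower in intermediate resistant cells, beside the same shares of all genes. Its medians of 0.12 and -0.07 lay near those of all genes, and the p53 target TP53I3 differed most among the better measured members, at 37.0, 44.3 and 71.4. Singled out after their values were seen, the potassium channel subunit gene KCNS3 had 1.04, 7.72 and 7.89 and the syndecan gene SDC1 15.2, 5.84 and 3.84. Neighbouring genes thus differed in both directions. DNA copy number was not analysed here.

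**Figure D2:**
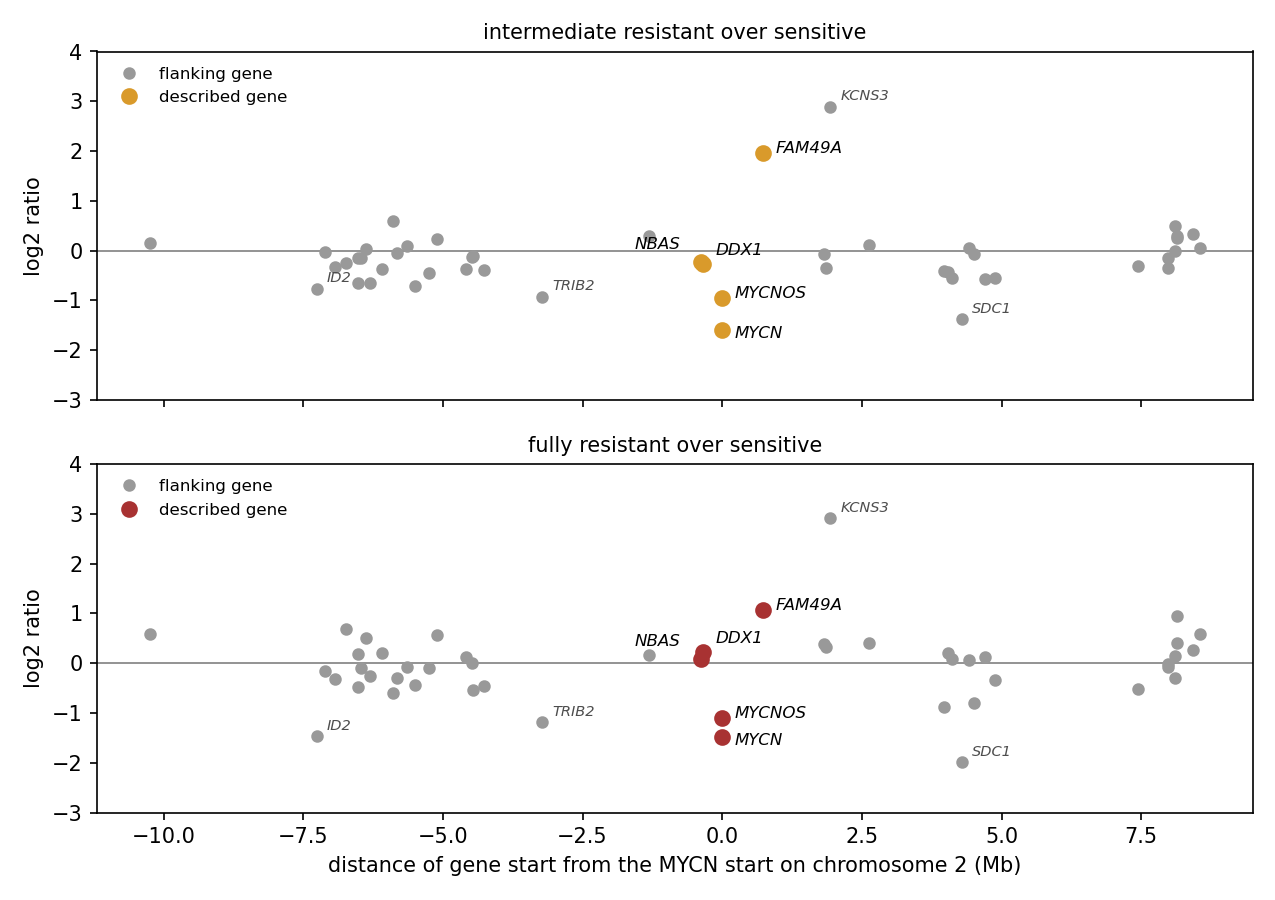
Log2 ratio over the sensitive library (vertical axis) against the distance of each gene start from the MYCN start in Mb (horizontal axis), for measured genes of the flanks (grey) and the described genes (coloured). MYCN and MYCNOS lie low at the centre, DDX1 and NBAS, 0.349 and 0.379 Mb before it, lie near 0, and FAM49A, 0.726 Mb after it, lies high in both panels.

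The level in single cells was compared after each cell had been thinned at random to 9500 UMIs, which kept 4907 sensitive, 5836 intermediate resistant and 5843 fully resistant cells and left out 508, 452 and 488. Sensitive cells held a median of 11 MYCN UMIs with a 5th to 95th percentile range of 3 to 27. Intermediate resistant cells held 3 (0 to 10) and fully resistant cells 4 (0 to 11). The whole distribution lay lower in the resistant libraries, with overlap in the tails. Of intermediate and fully resistant cells, 4.15% and 5.60% reached the sensitive median, and 7.13% and 11.5% of sensitive cells fell at or below the respective resistant medians.

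MYCN varied more between cells than counting error gives. The percentage of cells with no MYCN UMI was 0.428% in the sensitive library, 6.89% in the intermediate and 6.16% in the fully resistant one, against 0.000543%, 1.68% and 1.31% for Poisson counts of the same mean. The spread beyond counting error, as a coefficient of variation, was 57.3%, 59.6% and 65.9% of the mean. The relative spread was thus similar while the mean differed. For MYCNOS the same measure was 47.2%, 57.8% and 37.6%, and for DDX1 it was 24.9%, 30.3% and 28.5%. Without thinning, a MYCN UMI was found in 99.7%, 96.8% and 97.0% of cells and a MYCNOS UMI in 93.3%, 79.2% and 78.8%. Barcodes of 1 to 100 UMIs had a MYCN level of 1196, 400 and 441 CPM (median depth 2 UMIs against 15660.5 to 16014 in cells). What free RNA adds to the shares of cells was not tested. No cell type without MYCN was present from which to read it.

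**Figure D3:**
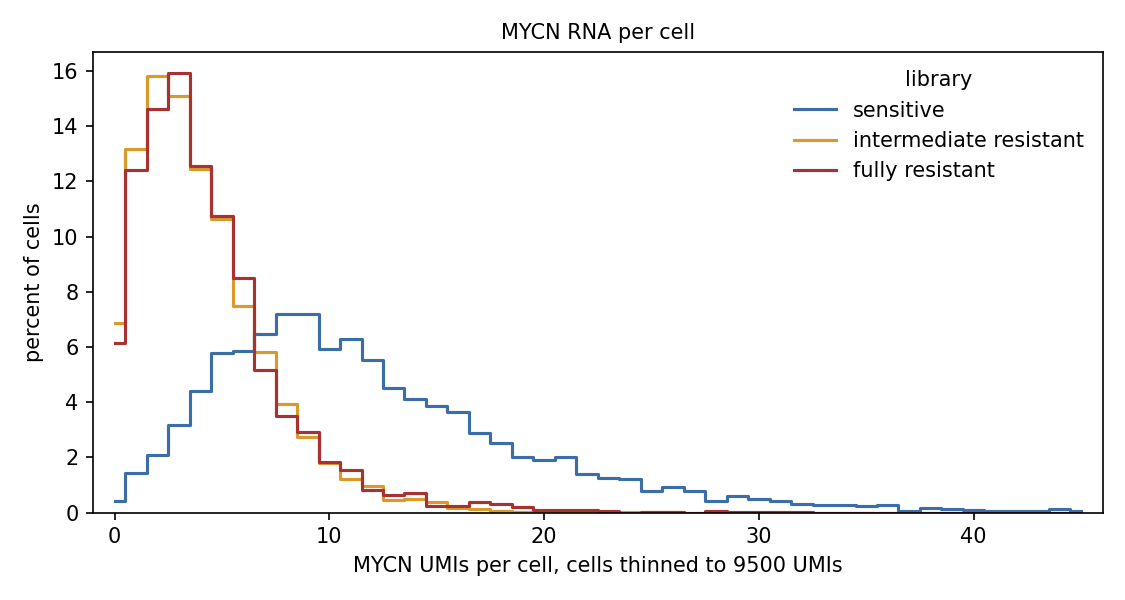
Percent of cells (vertical axis) by MYCN UMIs per cell after thinning to 9500 UMIs (horizontal axis, drawn to 45 with the highest sensitive cell at 72) in each library. The sensitive distribution centres on a median of 11 and both resistant distributions centre on 3 and 4.

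MYCNOS was the member that followed MYCN from cell to cell. Pearson r between the log2(UMI + 1) values of MYCN and MYCNOS was 0.281 in 4907 sensitive, 0.195 in 5836 intermediate resistant and 0.108 in 5843 fully resistant cells. The order of these values is also the order of the MYCNOS level, on which r depends in sparse counts. Covariance divided by the product of the means, which does not fall with depth, was 0.136, 0.169 and 0.0847. Among 4149 genes with at least 20 CPM in every library, MYCNOS ranked 1, 1 and 9 by r with MYCN. The cells of a library share its preparation and free RNA, so these values are a description. With the shares of cell cycle, mitochondrial and ribosomal protein UMIs taken out, r was 0.248, 0.180 and 0.101.

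For the other members no r with MYCN stood out in single cells. DDX1, which lies nearest to MYCN apart from MYCNOS, had r of 0.028, -0.011 and -0.023 and ranks of 917, 2595 and 3805. NBAS and FAM49A had r between -0.032 and 0.015, and MYC, with its few UMIs, between -0.001 and 0.005. MAX reached 0.050, 0.033 and 0.017. All of these lay between the 1st and 99th percentiles of r over the 4149 genes with at least 20 CPM in every library. Those percentiles were -0.100 and 0.104 in sensitive, -0.125 and 0.0879 in intermediate resistant and -0.0685 and 0.0738 in fully resistant cells. NBAS, FAM49A and MYC did not reach that level in every library and are not among those genes. Counts that sparse hold r near 0, so their place inside the range cannot show whether they follow MYCN. Weak correlations in sparse counts are no finding.

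**Figure D4:**
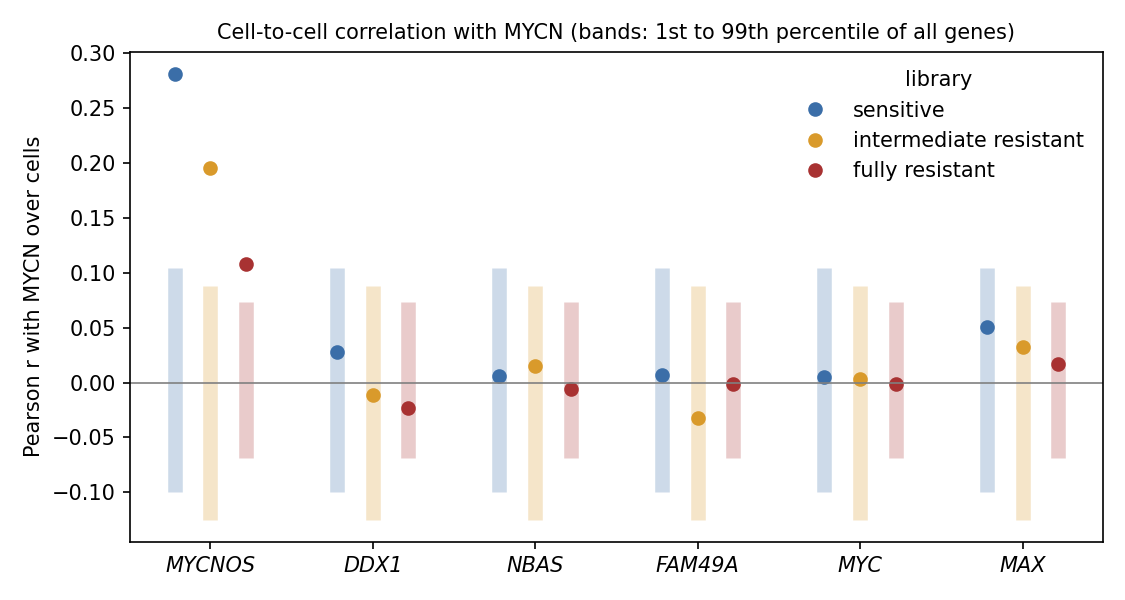
Pearson r with MYCN over cells thinned to 9500 UMIs (vertical axis) for the other 6 genes in each library, with bands from the 1st to the 99th percentile of r over 4149 genes. MYCNOS lies above the band in all libraries (0.281, 0.195 and 0.108) and the other genes lie inside it. The counts of NBAS, FAM49A and MYC are too few for this to show whether they follow MYCN.

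Genes most like MYCN over cells were ranked by their lowest r in the 3 libraries, among 4027 genes. GATA2, a sympathetic lineage transcription factor with r of 0.184, 0.147 and 0.136, led this ranking and MYCNOS followed. Next came the snoRNA-binding protein gene NHP2 (0.0986, 0.0956 and 0.0955), HEATR2, a dynein assembly factor, and NME1, a nucleoside diphosphate kinase. RGS16, UNG and the nucleolin gene NCL made up the 8 highest. The 8 lowest were led by the replication-dependent histone gene HIST1H4C (-0.192, -0.169 and -0.133) and held RRM2 and CDK1, which act in DNA synthesis and mitosis, together with GAPDH, CARHSP1, EIF1, CSRP2 and H1F0. Over libraries, the genes whose 2 log2 ratios lay nearest to those of MYCN, among 2621, were COMMD3 (67.1, 26.7 and 23.7 CPM), GNG3, CAMK4, ADRBK2, LIMCH1, MSRB2, MCM10 and CENPN, at distances of 0.26 to 0.43 log2 units. For some genes r with MYCN changed sign or size between libraries, and the 2 given here were picked after their values were seen. DLK1, a Notch pathway ligand, had r of 0.264, -0.0523 and -0.109, and ID2 had -0.00915, 0.107 and 0.167.

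The relation of MYCN to the cell cycle differed between libraries. Among genes of G2 and M phase, 39 had at least 20 CPM in every library. Of these, 1 had r above 0 with MYCN in sensitive, 1 in intermediate resistant and 34 in fully resistant cells. For all 4149 genes at that level the shares were 61.4%, 46.6% and 66.6%. The r of MYCN with the summed share of all listed G2 and M phase genes was -0.163, -0.226 and 0.0474. Among quintiles of cells ordered by that share, MYCN went from 1471 in the lowest to 1143 CPM in the highest in sensitive cells and from 503 to 331 in intermediate resistant cells. In fully resistant cells it was 430, 496, 404, 386 and 568, with the highest level in the quintile with most G2 and M phase RNA. Split by UMI total, the positive relation was found among cells with fewer UMIs, and the reason was not tested. Within quintiles of fully resistant cells by UMI total, r was 0.208 in the shallowest, 0.0617 in the next and then -0.0231, -0.0237 and -0.0330. In the other libraries it was below 0 in every such quintile, from -0.254 to -0.0623 in sensitive and from -0.289 to -0.115 in intermediate resistant cells.

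MYCNOS and DDX1 had cell cycle patterns of their own. MYCNOS was higher with more S phase RNA, going from the lowest to the highest quintile from 198 to 277 CPM in sensitive, from 109 to 145 in intermediate resistant and from 107 to 135 in fully resistant cells. MYCN went the other way in sensitive cells, from 1314 to 1169, and in intermediate resistant cells, from 446 to 387. In fully resistant cells MYCN was 400, 518, 518, 453 and 395 over the S phase quintiles, with similar levels at both ends. DDX1 was higher with more G2 and M phase RNA in all libraries, from 118 to 157, from 82.4 to 142 and from 116 to 191. It also stood higher in the highest than in the lowest S phase quintile, at 135 against 120, 118 against 92.6 and 155 against 123. Quintiles of 1 library share its preparation and are not replicates.

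**Figure D5:**
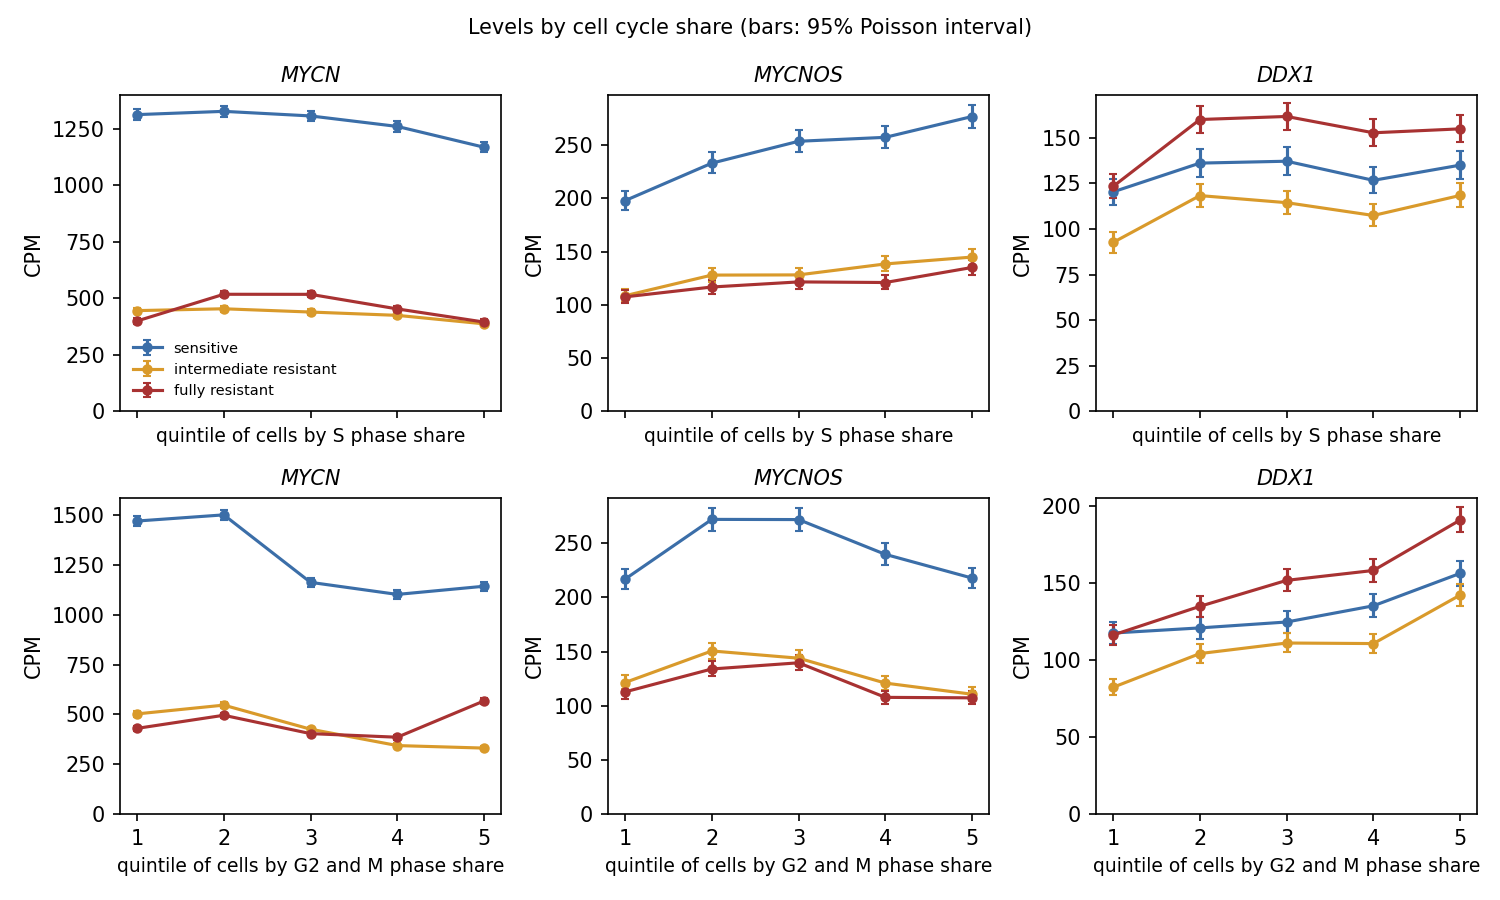
CPM (vertical axes, from 0) of MYCN, MYCNOS and DDX1 in quintiles of the thinned cells ordered by the share of S phase RNA (upper row) or of G2 and M phase RNA (lower row), with 95% Poisson intervals. MYCN in the highest G2 and M phase quintile is 1143 in sensitive, 331 in intermediate resistant and 568 in fully resistant cells, and DDX1 is highest in that quintile in all libraries.

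Genes of the MYC, MAX and MLX network differed in both directions. The list holds MYCN itself, which enters its counts and medians. Of 10 measured members, 2 were higher and 2 lower in fully resistant than in sensitive cells, beside 15.2% and 14.7% of all genes. The lower ones were MYCN and MXD3, and the median log2 ratio was -0.10 beside 0.08. In intermediate resistant cells 1 of 9 was higher and 1, MYCN, was lower, beside 5.83% and 12.2% of all genes. MXD3, a MAX partner that represses transcription, had 21.5, 16.5 and 13.9 CPM, and MLXIP, a partner of MLX in glucose sensing, 32.7, 54.8 and 56.6. The remaining MYC gene, MYCL, was given after its values were seen and had 0.631, 1.51 and 7.30.

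Genes that govern the stability and the activity of MYC proteins were mostly within 1.5-fold between the libraries. None of them was lower in fully resistant than in sensitive cells by the size rule, where 14.7% of all genes were. Of 15 measured turnover genes 2 were higher and 0 lower than in sensitive cells, with a median log2 ratio of 0.18, and the share of higher members was near the 15.2% of all genes. AURKA, the mitotic kinase that shields MYCN protein from degradation, had 90.5, 88.5 and 167 CPM. SKP2, a ubiquitin ligase subunit for MYC, had 64.5, 42.5 and 80.2. Of 20 cofactors 3 were higher and 0 lower, with a median of 0.21, and these were BPTF at 160, 244 and 267, EZH2 at 155, 129 and 237 and CDK9 at 10.3, 13.9 and 20.3. In the same comparison 11 of 51 genes of G2 and M phase were higher and 0 lower, beside 15.2% and 14.7% of all genes. AURKA is itself a G2 and M phase gene, and the part of that phase in its level was not tested. In intermediate resistant cells 0 of the turnover genes were higher and 1 lower than in sensitive cells. Of the cofactors 1 was higher and 1 lower there, beside 5.83% and 12.2% of all genes.

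RNA of genes that MYC proteins are known to activate mostly stayed within 1.5-fold. Of 42 measured members 3 were higher and 4 lower in fully resistant than in sensitive cells, beside 15.2% and 14.7% of all genes. In intermediate resistant cells 0 were higher and 3 lower, beside 5.83% and 12.2%. The medians were -0.12 and -0.18 beside 0.08 and -0.08 for all genes, so the typical member was lower by a small step in both. RAN, the nuclear transport GTPase, had 1024, 1371 and 1640 CPM, and SHMT2, of mitochondrial one-carbon metabolism, 31.4, 41.2 and 54.9. The nucleolar genes GNL3 and RRP9 had 145, 143 and 87.8 and 54.4, 42.3 and 22.9. ODC1, a classic MYC target on the telomeric side of MYCN that is named after its values were seen, had 792, 481 and 582. A level of at least 20 CPM in every library was reached by 39 members. In single cells 21 of them (53.8%) had r above 0 with MYCN in all 3 libraries, beside 26.0% of the 4149 genes at that level. Another 5 (12.8%) had r below 0 in all 3, beside 10.15% of those genes. The median of the mean level over libraries was 103 CPM for these members and 56.8 for those genes. In sparse counts r depends on the level.

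Genes known to be repressed by MYC proteins did not move as one. Of 14 measured members 6 were higher and 4 lower in fully resistant than in sensitive cells, beside 15.2% and 14.7% of all genes, and the median log2 ratio was 0.33 (0.042 with TMM scaling) beside 0.08. In intermediate resistant cells 2 of 13 were higher and 5 lower, beside 5.83% and 12.2% of all genes, with a median of -0.28 beside -0.08. CDKN1A, the p21 cell cycle inhibitor, had 14.1, 0.469 and 36.5 CPM, and the WNT antagonist DKK1 17.7, 4.42 and 126, both lowest in the intermediate resistant library. PMP22 had 40.7, 11.6 and 0.509 and TXNIP 42.5, 62.4 and 12.6.

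Of 20 known regulators of MYCN transcription and RNA, 3 were higher and 5 lower in fully resistant than in sensitive cells, beside 15.2% and 14.7% of all genes. In intermediate resistant cells 3 were higher and 2 lower, beside 5.83% and 12.2% of all genes. GATA3, a sympathetic lineage transcription factor, had 275, 435 and 111 CPM and the homeobox gene MEIS2 125, 342 and 44.2, both lowest in fully resistant cells. TBX2 had 106, 57.5 and 46.8, the same order of libraries as MYCNOS.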

How the data were processed

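Droplet single-cell RNA of Kelly cells was measured with 10x Genomics 3′ v2 chemistry, per the labels. The authors deposited whole-number UMI counts for 32738 gene rows and 737280 barcodes per library, with no normalization, and no per-sample column was left unused (0). Per the submitters' processing notes, bcl2fastq, Cell Ranger and the hg19 build were used, and versions are not given in the sources used here. The genes described and the gene lists were chosen with earlier results of these data known, and lists came from general knowledge of the field.

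A gene's level is its UMI sum over called cells, scaled to a library total of 1000000 (CPM). Levels carry exact Poisson, ratios exact conditional binomial and shares Clopper-Pearson 95% intervals. Cells were thinned to 9500 UMIs for per-cell values. Doublets were not called. The 5% of cells with most UMIs were left out as an alternative. Quintiles are 5 equal groups of thinned cells. The 7 genes were always named. Of 10 lists, those of S phase and of G2 and M phase were used without naming genes by rule. From each other list, up to 4 measured genes with at least 20 CPM were named. These had the greatest absolute log2 ratio between fully resistant and sensitive cells. Also named were the 8 genes nearest to MYCN over libraries (at least 50 CPM in the highest) and the 8 highest and 8 lowest in r. Mitochondrially encoded, ribosomal protein and clone-named genes were left out of the nearest genes and of the ranking by r. Cofactor EP400, turnover genes CUL1 and SKP1, network gene MLX and flank genes ASAP2, SMC6, RDH14 and SF3B14 also met the rule. A list of cell markers and a gene covered by these rules are not reported here. CKS1B has 2 rows of its symbol and was left out. Gene positions are from GENCODE on GRCh38 and were matched by Ensembl ID for 65 of 65 genes. RefSeq promoter windows were matched for 5 of 6 genes looked up. Analyses used Python 3.11.15, numpy 2.4.6, scipy 1.17.1, pandas 2.3.3, R 4.3.3 and edgeR 4.0.16 (TMM factors only) and were tested on simulated data.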

Additional observations from a re-analysis of the deposited data

Results flagged for a closer look

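Barcodes with 1 to 100 UMIs lie outside the called cells and were not used in the comparisons. DDX1 stood higher there than in cells, at 159.9 CPM (sensitive), 133.5 (intermediate resistant) and 174.9 (fully resistant), against 133, 111 and 156 in cells. The order of the libraries was the same in both. MYC stood at 1.897 CPM in such barcodes of the sensitive library (6 UMIs) and at 1.942 in those of the intermediate resistant library (8 UMIs), against 0.0526 and 0.0878 in cells. In the fully resistant library it was 0.244 (1 UMI) against 0.292.

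Over single cells, the r of MYCN with the share of G2 and M phase RNA was 0.0474 in the fully resistant library and below 0 in the others, at -0.163 and -0.226. The difference between libraries was not tested.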

How the results depend on the processing

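No paired analysis was possible because each group has 1 library. Scaling, cell limits, count minimum, ratio, cell weights, shared barcodes and thinning were varied 1 at a time. The MYCN log2 ratio of fully resistant over sensitive cells, -1.48, was -1.53 without mitochondrially encoded and ribosomal protein genes, -1.57 with TMM and -1.55 with median-of-ratios scaling. That of intermediate resistant over sensitive cells, -1.59, was -1.53, -1.54 and -1.55 in that order and -1.57 with cells weighted equally. That of fully over intermediate resistant cells, 0.11, was -0.0013, -0.030 and 0.00062. TMM scaling also turned NBAS between fully resistant and sensitive cells to -0.0040 and the median of the telomeric flank between the resistant libraries from 0.14 to -0.00090. With no minimum level the network median of intermediate resistant over sensitive cells went from -0.28 to 0.077. These shifts follow from the totals and gene sets used.

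The count of higher genes among the 7 was 0 with a minimum of 20 CPM, in both resistant libraries over the sensitive one. Of all genes, 783 of 5342 were higher at that minimum in fully and 238 of 5045 in intermediate resistant cells. With no minimum the count was 2 in both, FAM49A and MYC, beside 5830 of 23086 and 4553 of 22972 genes. The MYC ratio of intermediate resistant over sensitive cells, 1.67 (0.503 to 6.35), rests on 9 and 5 UMIs. At a ratio of at least 2, 1 gene was lower in intermediate resistant than in sensitive cells, beside 458 of 9529 genes. Between the resistant libraries, 1 (MYC) was higher with no minimum, beside 5357 of 23282 genes. There 0 were lower at a ratio of at least 2 (376 of 9614 genes) or a minimum of 20 CPM (328 of 5165). MYCN and MYCNOS had r of 0.208 in sensitive and 0.130 in intermediate resistant cells at 5000 UMIs. Cell cycle alternatives (rank correlation, covariates with the UMI total among them, depth quintiles, thinning, high-UMI cells) were chosen after seeing the data. In fully resistant cells r was 0.0252 to 0.0552 apart from the depth quintiles given above. Low counts limit MYC most, with 5, 9 and 31 UMIs.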
